A study of Mus musculus with 3 samples.

Results

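The regulators of G-protein signalling (RGS) examined here are 8 genes, Rgs1, Rgs2, Rgs3, Rgs4, Rgs5, Rgs10, Rgs16 and Rgs19, measured in cultured mouse dermal fibroblasts of 3 Fgfr3 genotypes. Members were taken as all probe sets annotated to exactly 1 of these symbols. This gave 10 probe sets for 7 genes, out of 9889 probe sets and 7842 named genes in the table. Rgs1 had no such probe set among the annotated ones and was not analysed here. The gene set was chosen from the signals of these same arrays, with Rgs16 already known to be high on one of them, so the members' values are given as a description and no test is made of them.

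Fgfr3 encodes one of the tyrosine kinase receptors that bind fibroblast growth factors. FGFR3Act fibroblasts came from Fgfr3G374Rneo- mice, whose receptor has the G374R change and is active with no ligand bound. FGFR3KO fibroblasts came from FGFR3G374Rneo+ mice, in which the same change is joined by a retained neo cassette and no functional receptor is expressed. FGFR3WT fibroblasts came from wild-type Bl6 mice. The sources used here do not give the strain background of both mutants, the age of the mice or the number of animals behind a culture. Each genotype has 1 column in the table although the series states n = 3, and whether a column is a culture, a pool or a mean is not given. No error between cultures could therefore be computed, and each difference below is one between 2 arrays. The comparisons of FGFR3Act and of FGFR3KO with FGFR3WT share the FGFR3WT array.

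RGS proteins end signals from G-protein-coupled receptors. A ligand-bound receptor loads the alpha subunit of a heterotrimeric G protein with GTP, and the RGS domain speeds the hydrolysis of that GTP, so that the subunit returns to its inactive, beta-gamma-bound form. In fibroblasts and smooth muscle such receptors carry the signals of endothelin, lysophosphatidic acid, thrombin, prostaglandins and chemokines to contraction, calcium and cyclic AMP. Rgs2, Rgs3, Rgs4, Rgs5, Rgs16 and Rgs1 belong to the R4 family, Rgs10 to the R12 family and Rgs19 to the RZ family. Of the 7 genes measured, 4 lie on chromosome 1, namely Rgs2, Rgs4, Rgs5 and Rgs16.

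The 3 arrays gave signals of similar scale. Low signals on such arrays are noisy, so each array was given a floor, its own 40th percentile, which was 123 for FGFR3Act, 122 for FGFR3KO and 121 for FGFR3WT. Anything below was raised to it, and a fold against an array below the floor is given as "at least". Such genes enter counts and medians at that bound, so the floor itself can lower but not raise a count of genes 2-fold apart. The choice of scaling moved such counts in either direction, so they are not minima in general. Fgfr3 itself had signals of 2.42 in FGFR3Act, 3.76 in FGFR3KO and 1.06 in FGFR3WT cells, all far below the floor, so it could not check the labels. The spread between probe sets of 1 gene gives the only measure of error within an array. Over 425 genes with 2 probe sets above the floor on both arrays, the log2 differences of the pair of probe sets for FGFR3Act against FGFR3WT lay a median of 0.30 apart, and in 1 gene of 10 more than 0.89 apart. The median gap was 0.39 over 422 genes for FGFR3KO against FGFR3WT and 0.43 over 407 genes for FGFR3Act against FGFR3KO. These gaps leave out the variation between cultures.

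**Figure D1:**
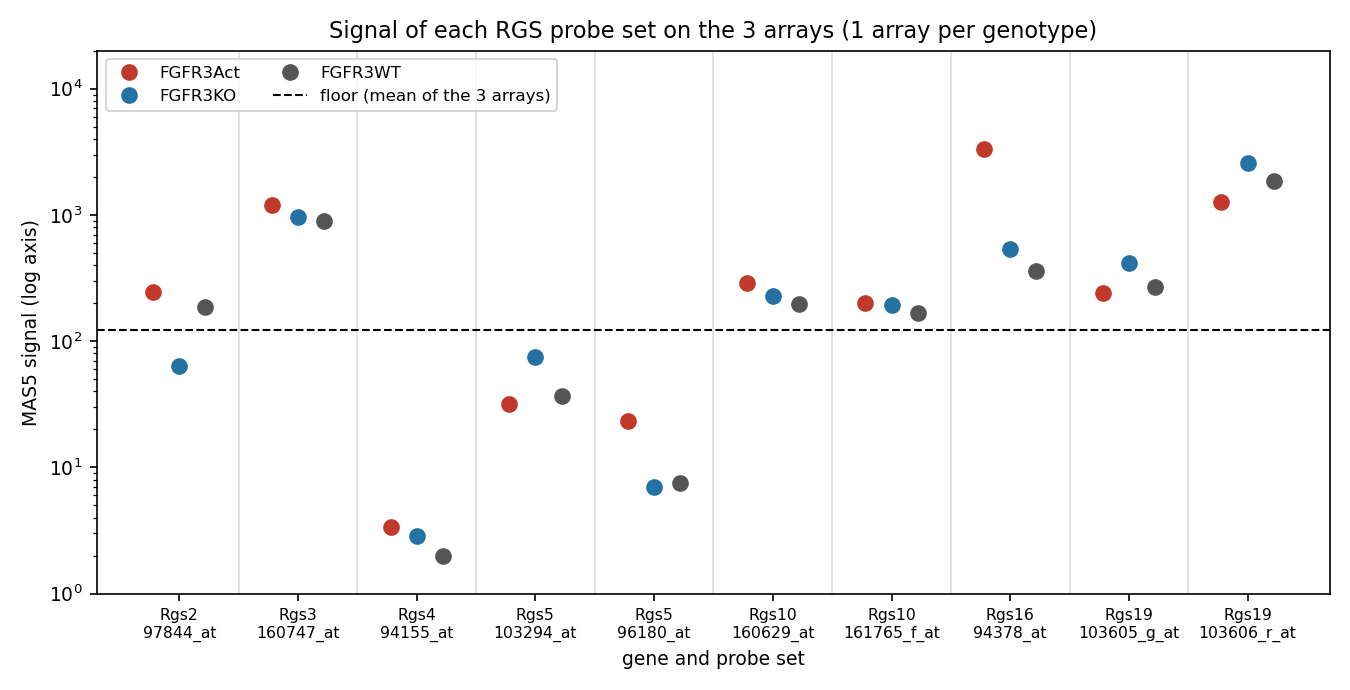
MAS5 signal (y axis, log scale) of the 10 RGS probe sets (x axis) on the FGFR3Act, FGFR3KO and FGFR3WT arrays, 1 point per array, with the mean floor as a dashed line. Rgs16 stands highest on FGFR3Act at 3325, Rgs2 lies below the floor on FGFR3KO at 63.4, and the probe sets of Rgs4 and Rgs5 lie below the floor on all 3 arrays.

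Rgs16 was far higher on FGFR3Act than on either other array, and past 2-fold from both. Rgs2 was low on FGFR3KO, where only a bound can be given. Rgs19 ran the other way, highest on FGFR3KO and lowest on FGFR3Act, while Rgs3 and Rgs10 differed little and Rgs4 and Rgs5 were too dim to compare. Of 5 members compared between FGFR3Act and FGFR3WT, 1 was at least 2-fold higher and 0 were at least 2-fold lower. Over all 5244 genes compared between those arrays, 4.14% lay 2-fold or more above FGFR3WT and 4.79% lay 2-fold or more below it. Between FGFR3KO and FGFR3WT, 0 of 5 members lay past 2-fold in either direction with Rgs2 at its bound of at least 1.52-fold lower, while 1.93% of 5184 genes lay 2-fold or more above FGFR3WT and 3.61% lay as far below it. Between FGFR3Act and FGFR3KO, 2 of 5 members lay 2-fold or more above FGFR3KO and 1 lay as far below it, beside 8.33% of 5297 genes above and 7.49% below. The members' median log2 difference was 0.43 for FGFR3Act against FGFR3WT, 0.23 for FGFR3KO against FGFR3WT and 0.32 for FGFR3Act against FGFR3KO, beside medians over all genes compared of -0.07, -0.02 and -0.05. The 5 members passed a filter on low signal and 2 did not, and since the members were picked with these values known, nothing is read from these counts.

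**Figure D2:**
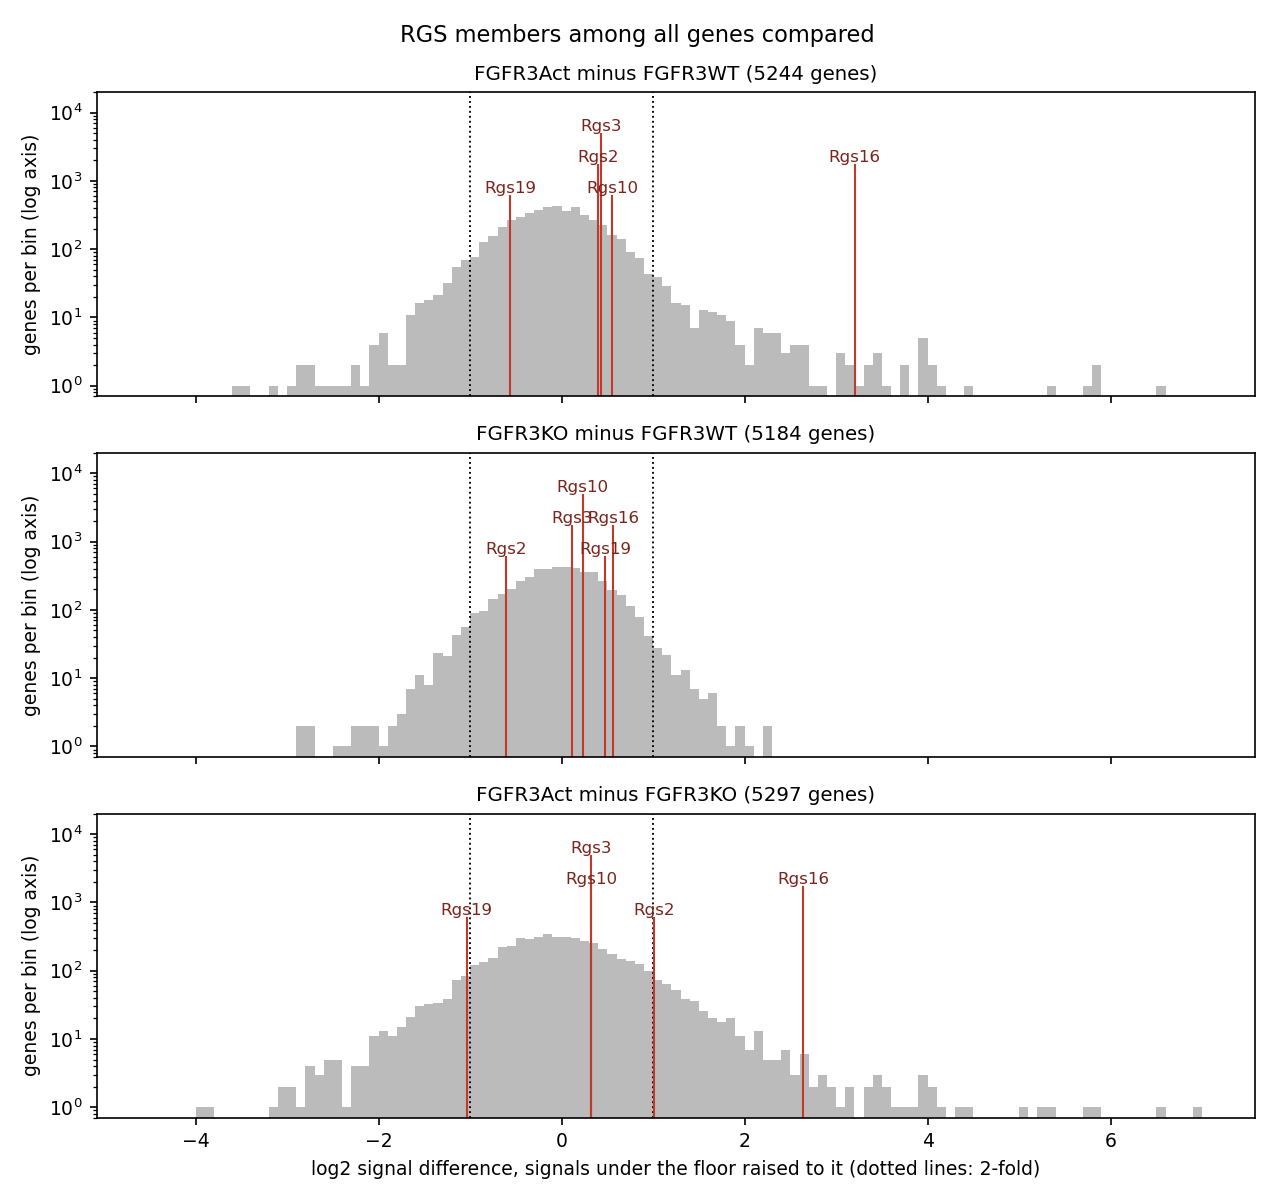
Number of genes (y axis, log scale) by log2 signal difference (x axis) for the 3 pairs of arrays, with the 5 RGS members above the floor as red lines and 2-fold as dotted lines. Rgs16 lies at 3.20 for FGFR3Act minus FGFR3WT and 2.64 for FGFR3Act minus FGFR3KO, and the other members lie near or within the 2-fold lines.

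Rgs16 encodes a small R4 protein that acts on alpha subunits of the Gi and Gq classes and is induced in lymphocytes and other cells on activation. Its probe set gave a signal of 3325 in FGFR3Act, 533 in FGFR3KO and 361 in FGFR3WT cells. The FGFR3Act array stood apart from both others, which lay close to each other. Its signal was 9.20-fold above FGFR3WT, a log2 difference of 3.20, and 6.24-fold above FGFR3KO, a log2 difference of 2.64. The log2 difference between FGFR3KO and FGFR3WT was 0.56, or 1.48-fold higher, against a median gap of 0.39 between probe sets of 1 gene. The gene had 1 probe set, so no second probe set on the array bears on its value. In terms of order, FGFR3Act was highest, and the order of FGFR3KO and FGFR3WT is not settled with such an error.

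The genes whose 3 signals ran most like those of Rgs16 were sought among 4444 other genes above the floor on all arrays. Symbols of the clone-name kind were left out, here and in the searches for Rgs2 and Rgs19. Nearness was the Euclidean distance between log2 signals centred on each gene's mean. With 3 arrays such likeness is a description only. The nearest were Kitl, which encodes the ligand of the Kit receptor, at a distance of 0.16, the myeloid receptor gene Cd300c2 at 0.29, the chromatin protein gene Hmga2 at 0.36, the transcriptional inhibitor gene Id2 at 0.44 and the lysosomal protease gene Ctsc at 0.58. Kitl had signals of 1121 in FGFR3Act, 176 in FGFR3KO and 138 in FGFR3WT cells. Hmga2 had 1519 in FGFR3Act, 188 in FGFR3KO and 180 in FGFR3WT cells.

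Markers of macrophages were high on the same array as Rgs16. Probe sets represented 18 macrophage and leukocyte markers, of which 15 were above the floor on FGFR3Act and 2 on each of FGFR3KO and FGFR3WT. The 15 compared between FGFR3Act and FGFR3WT included 14 at least 2-fold higher and 0 lower, with a median log2 difference of at least 3.47, since 13 of the 15 are bounds. Between FGFR3Act and FGFR3KO, 14 of 15 likewise lay 2-fold or more above FGFR3KO, and the median was at least 3.45. The remaining marker, Cx3cr1, was 1.19-fold lower on FGFR3Act than on FGFR3KO. Its signals were 240 in FGFR3Act, 285 in FGFR3KO and 199 in FGFR3WT cells. The list's summed signal was 36864 in FGFR3Act, 1468 in FGFR3KO and 1279 in FGFR3WT cells. Against FGFR3WT, the lysozyme gene Lyz2 was at least 58.3-fold and the lysosomal membrane protein gene Cd68 at least 21.6-fold higher in FGFR3Act cells. Rgs16 and Rgs10 are known from leukocytes as well as from other cells. The part of macrophage transcripts in the Rgs16, Rgs10, Prkcb and Pkib signals on FGFR3Act was not tested, and in such a culture more cells of a type and more RNA per cell cannot be told apart.

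The promoter windows of Rgs16 and Rgs2 are shown because these 2 genes were the members whose FGFR3Act signal exceeded that of FGFR3KO by 2-fold or more. Each runs from 250 bases before the annotated start to 50 bases after it and was taken from RefSeq, build GRCm38.p6. That of Rgs16 lies at chr1:153740103-153740402 on the plus strand and that of Rgs2 at chr1:144004100-144004399 on the minus strand. Capitals mark CCAAT boxes (CCAAT or its reverse complement ATTGG) and half-sites of the cyclic AMP response element (TGACG or its reverse complement CGTCA).
Rgs16: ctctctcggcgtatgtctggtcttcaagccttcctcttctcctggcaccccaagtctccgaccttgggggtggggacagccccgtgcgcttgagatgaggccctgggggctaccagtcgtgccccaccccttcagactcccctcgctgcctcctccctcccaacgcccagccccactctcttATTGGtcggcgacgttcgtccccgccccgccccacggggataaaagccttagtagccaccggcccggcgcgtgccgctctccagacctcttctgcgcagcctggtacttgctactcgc
Rgs2: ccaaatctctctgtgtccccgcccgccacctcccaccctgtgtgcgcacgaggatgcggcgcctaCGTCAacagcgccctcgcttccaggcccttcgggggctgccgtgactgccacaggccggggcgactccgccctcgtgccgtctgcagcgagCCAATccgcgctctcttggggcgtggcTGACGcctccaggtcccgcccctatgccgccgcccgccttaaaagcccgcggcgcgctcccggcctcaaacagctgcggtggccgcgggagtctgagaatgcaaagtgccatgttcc
Rgs16 held a CCAAT box beginning 68 bases before the start and no half-site. Rgs2 held a CCAAT box beginning 94 bases before the start, and half-sites beginning 185 and 67 bases before it. All 7 measured members had at least 1 window in the table. CCAAT boxes were found in 4 of the 7, Rgs2, Rgs4, Rgs5 and Rgs16, or 4 of the 10 windows of the members, and in 37.4% of all 32851 windows. Half-sites were found in 2 of the 7, Rgs2 and Rgs4, or 2 of the 10 member windows, and in 20.8% of all windows. The full cyclic AMP response element (TGACGTCA), which contains both half-sites, was in 0 of the 7 and in 1.79% of windows. An AP-1 site (TGANTCA) and an ETS site (CCGGAAGT, both strands) were also in 0 of the 7, beside 7.81% and 3.89% of windows. A TATA box (TATAAA, both strands) was in 2 of the 7, Rgs3 and Rgs4, or 3 of the 10 member windows, and in 13.6% of windows. These matches describe letters in a short window and say nothing of binding.

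Rgs2 encodes a short R4 protein that prefers alpha subunits of the Gq class and is known for limiting vasoconstrictor signals in smooth muscle. It had a signal of 245 in FGFR3Act, 63.4 in FGFR3KO and 186 in FGFR3WT cells. FGFR3KO was the low array and the only one below the floor. FGFR3Act had at least 2.01-fold more signal than FGFR3KO, and FGFR3KO was at least 1.52-fold lower than FGFR3WT. Without the floor these ratios were 3.86-fold higher and 2.93-fold lower. FGFR3Act was 1.32-fold above FGFR3WT, a log2 difference of 0.40. That is above the median gap of 0.30 between probe sets of 1 gene, but below the gap of 0.89 that 1 gene in 10 exceeded. The bound of 2.01-fold sits just past the 2-fold line, and with each array centred on its median it was 1.99-fold.

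With clone-name symbols again left out, 129 other genes were above the floor on FGFR3Act and FGFR3WT but not on FGFR3KO. Of these, the nearest to Rgs2 in pattern were Rida at a distance of 0.04, Ttc1 at 0.07 and the endothelin 1 gene Edn1 at 0.09. Next came the RNA-processing gene Pnpt1 at 0.14 and the ADP-ribosyltransferase gene Tiparp at 0.16. Edn1 encodes a vasoconstrictor peptide whose receptors couple to G proteins, and had signals of 266 in FGFR3Act, 92.8 in FGFR3KO and 191 in FGFR3WT cells. Raising FGFR3KO to the floor brings these genes closer together than their signals are.

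Rgs3, which encodes a longer R4 protein that acts on Gi and Gq alpha subunits, had signals of 1205 in FGFR3Act, 963 in FGFR3KO and 892 in FGFR3WT cells. The arrays lay close together, with FGFR3Act 1.35-fold above FGFR3WT and 1.25-fold above FGFR3KO. FGFR3KO was 1.08-fold above FGFR3WT. The log2 difference of 0.43 for FGFR3Act against FGFR3WT is above the median gap of 0.30 between probe sets of 1 gene. It is below the gap of 0.89 that 1 gene in 10 exceeded. Those of 0.32 against FGFR3KO and 0.11 for FGFR3KO against FGFR3WT are below the median gaps of 0.43 and 0.39. The arrays are therefore not ordered for Rgs3.

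Rgs4 and Rgs5 were below the floor on every array. Rgs4, an R4 regulator best known from neurons and heart, had signals of 3.34 in FGFR3Act, 2.86 in FGFR3KO and 2.0 in FGFR3WT cells. Rgs5, an R4 regulator used as a marker of pericytes and arterial smooth muscle, had 2 probe sets. The first (103294_at) gave 32.0 in FGFR3Act, 75.6 in FGFR3KO and 36.6 in FGFR3WT cells. The second (96180_at) gave 23.2 in FGFR3Act, 6.96 in FGFR3KO and 7.57 in FGFR3WT cells. The probe sets disagreed, since the first was highest on FGFR3KO and the second on FGFR3Act. No fold is given for either gene, and signals this low do not show that a transcript was absent.

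Rgs10 encodes a short R12 protein that acts on Gi-class alpha subunits and is abundant in microglia and other myeloid cells. Its brighter probe set (160629_at) gave 287 in FGFR3Act, 230 in FGFR3KO and 196 in FGFR3WT cells. The other (161765_f_at, of a kind that can detect related sequences) gave 200 in FGFR3Act, 194 in FGFR3KO and 166 in FGFR3WT cells. Both had the same order of arrays, with small steps. FGFR3Act was 1.47-fold above FGFR3WT by the brighter probe set and 1.20-fold by the other. FGFR3KO was 1.17-fold above FGFR3WT by both, log2 differences of 0.23 and 0.22, below the median gap of 0.39 between probe sets of 1 gene. FGFR3Act was 1.25-fold and 1.03-fold above FGFR3KO, log2 differences of 0.32 and 0.04, below the gap of 0.43. Those of FGFR3Act against FGFR3WT, 0.55 and 0.26, lay above and below the gap of 0.30. The arrays are therefore not ordered for Rgs10 either. The difference of 0.29 between the 2 log2 values for FGFR3Act against FGFR3WT is close to the median gap of 0.30.

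Rgs19, also known as GAIP, encodes the RZ protein first found through its binding to a Gi-class alpha subunit. Its brighter probe set (103606_r_at) gave 1258 in FGFR3Act, 2583 in FGFR3KO and 1855 in FGFR3WT cells. The other (103605_g_at) gave 240 in FGFR3Act, 415 in FGFR3KO and 269 in FGFR3WT cells. Both put FGFR3KO highest and FGFR3Act lowest. FGFR3Act was 2.05-fold below FGFR3KO by the brighter probe set and 1.73-fold by the other, so only the first lay past 2-fold. Against FGFR3WT, FGFR3KO was 1.39-fold higher by the brighter probe set and 1.54-fold by the other, and FGFR3Act was 1.47-fold and 1.12-fold lower. Suffixes _r_ and _g_ mark probe sets designed under relaxed rules or shared within a group of sequences, and Rgs19 had no probe set of the plain kind. The 5 genes nearest to Rgs19 in pattern, Tmem234, Rex1bd, B4galt3, the mitotic kinase gene Nek2 and the basement membrane collagen gene Col4a1, lay at distances of 0.02 to 0.04. Col4a1 had signals of 4200.0 in FGFR3Act, 8975 in FGFR3KO and 6338 in FGFR3WT cells.

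Of the other R-family RGS genes, 6 had a probe set of 1 symbol and 3 were above the floor on at least 1 array. With Rgs8 and Rgs11 at their bounds, 0 were past 2-fold in any pair. Rgs14, an R12 regulator that also binds Ras-family proteins, had signals of 268 in FGFR3Act, 236 in FGFR3KO and 136 in FGFR3WT cells. Both mutant arrays were higher than FGFR3WT, FGFR3Act by 1.97-fold and FGFR3KO by 1.74-fold, and the difference of FGFR3Act lies just short of 2-fold. Rgs11, of the R7 family that pairs with the beta subunit Gnb5, had signals of 126 in FGFR3Act, 55.9 in FGFR3KO and 146 in FGFR3WT cells. Rgs11 thus shared with Rgs2 a signal below the floor on FGFR3KO alone. Its FGFR3Act signal, however, lay just above the floor of 123, at least 1.03-fold above FGFR3KO. On FGFR3KO Rgs11 was at least 1.20-fold lower than in FGFR3WT cells, or 2.62-fold lower without the floor. Rgs8 had signals of 131 in FGFR3Act, 118 in FGFR3KO and 81.4 in FGFR3WT cells, and Rgs6, Rgs7 and Rgs9 were below the floor throughout.

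RGS-homology domains also occur outside these families, for example in axins and sorting nexins. Of 5 such genes on the array 3 could be compared, Axin1, Snx13 and Snx14, and 0 were 2-fold apart in any pair. Their median log2 difference was 0.02 for FGFR3Act against FGFR3WT, -0.44 for FGFR3KO against FGFR3WT and 0.13 for FGFR3Act against FGFR3KO.

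RGS proteins act on alpha subunits, and the classes named above for the members are Gi and Gq. The list of alpha subunits also holds other classes, among them Gnas, Gna12 and Gna13. Of 14 on the array 8 were above the floor on at least 1 array, and their median log2 difference was 0.14 for FGFR3Act against FGFR3WT, 0.09 for FGFR3KO against FGFR3WT and -0.04 for FGFR3Act against FGFR3KO. Only Gnai1, a Gi-class subunit, was 2-fold apart. Its signal was 932 in FGFR3Act, 239 in FGFR3KO and 761 in FGFR3WT cells. Like Rgs2, Gnai1 was low on FGFR3KO, 3.19-fold below FGFR3WT, and FGFR3Act exceeded FGFR3KO by 3.90-fold. Its second probe set was far below the floor. Gnai3, another Gi-class subunit, had signals of 4173 in FGFR3Act, 2129 in FGFR3KO and 4030 in FGFR3WT cells. Gnaq, the Gq subunit favoured by Rgs2, was below the floor on all 3 arrays, while the related Gna11 had 720.0 in FGFR3Act, 743 in FGFR3KO and 969 in FGFR3WT cells by its brighter probe set. The other probe set of Gna11 disagreed, with 147 in FGFR3Act, 546 in FGFR3KO and 664 in FGFR3WT cells.

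Of 12 beta and gamma subunits 8 could be compared. The beta subunit gene Gnb4 was 3.20-fold above FGFR3WT on FGFR3Act, with signals of 574 in FGFR3Act, 265 in FGFR3KO and 179 in FGFR3WT cells. The gamma subunit gene Gng3 was 2.32-fold above FGFR3WT on FGFR3KO, with 132 in FGFR3Act, 286 in FGFR3KO and 123 in FGFR3WT cells, the last just above the floor. Gnb2 was 2.83-fold lower on FGFR3Act than on FGFR3KO, with 1422 in FGFR3Act, 4024 in FGFR3KO and 2554 in FGFR3WT cells. These beta and gamma genes thus had no common direction. The list's median log2 difference was 0.10 for FGFR3Act against FGFR3WT, 0.44 for FGFR3KO against FGFR3WT and -0.12 for FGFR3Act against FGFR3KO.

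The receptor list had 27 genes on the array for G-protein-coupled and related receptors, of which 14 were above the floor on at least 1 array. Against FGFR3WT, the prostaglandin E2 receptor gene Ptger4 was 2.33-fold higher on FGFR3Act, at 454 against 195. The Wnt receptor gene Fzd2 was 2.08-fold lower on FGFR3Act, at 783 against 1628. Neither of these was 2-fold apart between FGFR3KO and FGFR3WT. Both were above FGFR3WT on FGFR3KO, however, Ptger4 by 1.78-fold at 347 and Fzd2 by 1.71-fold at 2777. On FGFR3KO the chemokine receptor gene Ackr3 was 4.62-fold below FGFR3WT, at 178 against 823, and the thromboxane receptor gene Tbxa2r was 2.18-fold above it, at 836 against 383. Between FGFR3Act and FGFR3KO, Ackr3 was 4.90-fold higher on FGFR3Act, and Fzd2, Tbxa2r and the prostaglandin F receptor gene Ptgfr were 3.54-fold, 3.40-fold and at least 2.14-fold lower. The median log2 difference was 0.08 for FGFR3Act against FGFR3WT, 0.50 for FGFR3KO against FGFR3WT and -0.07 for FGFR3Act against FGFR3KO.

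Effectors and other modulators were compared in the same way. Of 20 effector genes 14 could be compared. Between FGFR3Act and FGFR3WT, 1 was at least 2-fold higher and 1 lower, beside 4.14% and 4.79% of all genes. Between FGFR3KO and FGFR3WT, 1 was higher and 0 lower, beside 1.93% and 3.61%. Between FGFR3Act and FGFR3KO, 1 was higher and 1 lower, beside 8.33% and 7.49%. Nothing is read from these counts. Against FGFR3WT, the adenylyl cyclase gene Adcy2 was 2.04-fold lower and the protein kinase C gene Prkcb at least 2.18-fold higher in FGFR3Act cells, and Adcy4 was 2.71-fold above FGFR3WT on FGFR3KO. Between FGFR3Act and FGFR3KO, Prkcb was 2.04-fold higher and Adcy4 was 2.63-fold lower. The effectors' median log2 difference was -0.01 for FGFR3Act against FGFR3WT, -0.20 for FGFR3KO against FGFR3WT and 0.04 for FGFR3Act against FGFR3KO. Among receptor kinases, arrestins and modulators, 7 genes were on the array and 1, Pcp2, was 2.09-fold above FGFR3WT on FGFR3Act, with 0 apart in the other pairs. The Pcp2 probe set is of the _r_ kind, and its FGFR3WT signal of 125 lay just above the floor of 121. The medians of that list were -0.06, 0.17 and -0.16 for the same 3 pairs.

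The cyclic AMP list of phosphodiesterases and protein kinase A genes had 14 members on the array. The gene for the kinase inhibitor Pkib in FGFR3Act cells exceeded FGFR3WT by at least 3.32-fold and FGFR3KO by at least 3.28-fold, with signals of 400.4 in FGFR3Act, 16.6 in FGFR3KO and 34.2 in FGFR3WT cells. Like Rgs16, Pkib was high on FGFR3Act alone. The related Pkia was 4.13-fold lower on FGFR3KO than on FGFR3WT and FGFR3Act exceeded FGFR3KO by 3.27-fold. The phosphodiesterase gene Pde7a was lower than FGFR3WT on both mutant arrays, 2.86-fold on FGFR3Act and 2.49-fold on FGFR3KO. Its FGFR3Act signal of 128 lay just above the floor of 123. The list's median log2 difference was -0.14 for FGFR3Act against FGFR3WT, -0.31 for FGFR3KO against FGFR3WT and 0.14 for FGFR3Act against FGFR3KO.

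**Figure D3:**
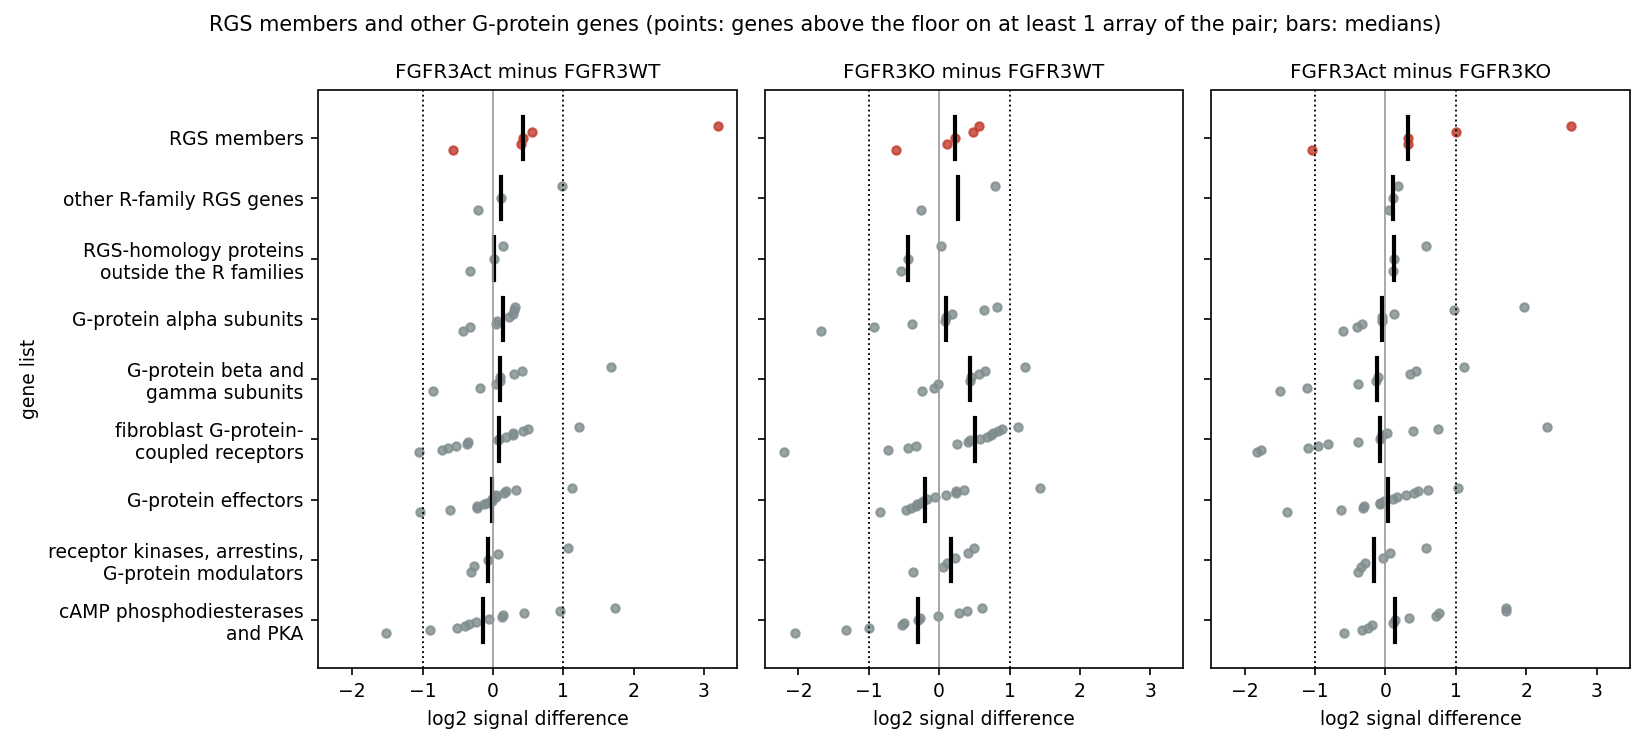
Log2 signal difference (x axis) of the RGS members in red and of 8 lists of related genes in grey (y axis) for the 3 pairs of arrays, with 1 point per gene above the floor on at least 1 array of the pair, bars at medians and dotted lines at 2-fold. Rgs16 is the point furthest right in the first panel, at 3.20, and Ackr3 the point furthest left in the second, at -2.21.

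T and B lymphocyte markers had 3 of 10 genes above the floor on at least 1 array and 0 at least 2-fold apart in any pair. Their summed signal was 643 in FGFR3Act, 642 in FGFR3KO and 480.0 in FGFR3WT cells. None of 7 endothelial markers reached the floor, 2 of 8 mast cell markers and 1 of 3 keratinocyte markers did so on at least 1 array. The mast cell gene Cma1 was at least 1.83-fold higher in FGFR3Act than in FGFR3WT cells, with signals of 222 in FGFR3Act, 96.7 in FGFR3KO and 94.2 in FGFR3WT cells. Its second probe set was below the floor on all 3 arrays. The other mast cell marker compared, Tpsb2, ran the other way, with 214 in FGFR3Act, 299 in FGFR3KO and 233 in FGFR3WT cells. Pericyte and smooth muscle markers, the setting in which Rgs5 is best known, had 10 genes on the array with summed signals of 17583 in FGFR3Act, 28621 in FGFR3KO and 17121 in FGFR3WT cells. Acta2 and Tagln gave the largest signals in these sums. Cnn1 was 2.61-fold and Myh11 at least 3.06-fold higher on FGFR3KO than on FGFR3WT. Of 8 genes compared in that pair, 5 were higher and 3, Mcam, Notch3 and Pdgfrb, were lower, with a median log2 difference of at least 0.45. Mcam, Notch3 and Pdgfrb were 2.49-fold, 2.42-fold and 2.35-fold lower on FGFR3Act than on FGFR3WT. Of 6 genes compared there, 4 were lower and 2, Acta2 and Tagln, were higher, with a median of -0.91. Dermal fibroblast markers were above the floor on all 3 arrays for 11 of 11 genes, with median log2 differences from FGFR3WT of -0.15 on FGFR3Act and 0.30 on FGFR3KO. With quantile normalisation of the arrays the FGFR3KO median was -0.076. These medians use the brightest probe set of each gene. Dimmer probe sets of Col1a1 and Col3a1 were far lower on FGFR3Act. That of Col1a1 gave 1251 in FGFR3Act, 9553 in FGFR3KO and 9602 in FGFR3WT cells. That of Col3a1 gave 193 in FGFR3Act, 958 in FGFR3KO and 1748 in FGFR3WT cells.

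**Figure D4:**
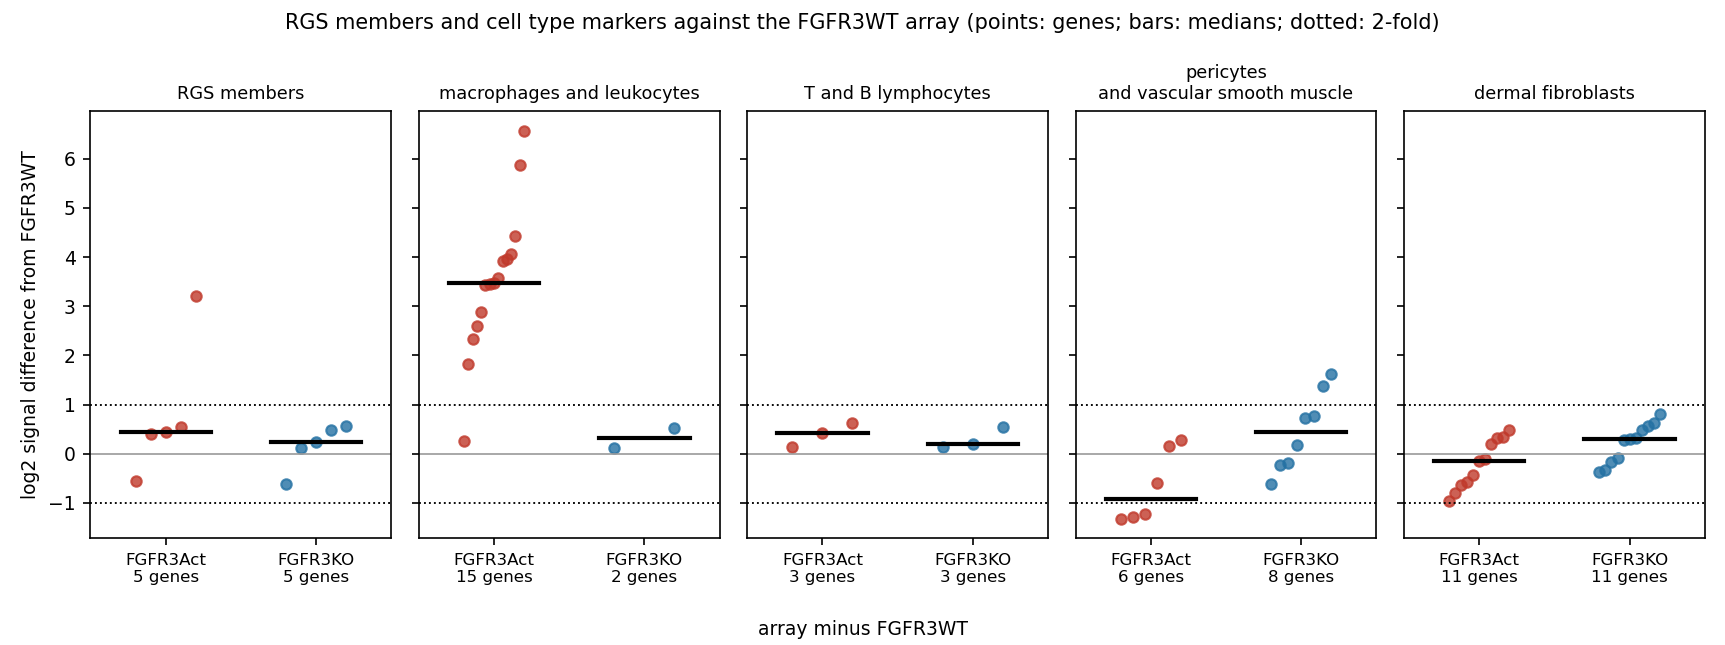
Log2 signal difference from FGFR3WT (y axis) on FGFR3Act and FGFR3KO (x axis) for the RGS members and 4 lists of cell type markers, with 1 point per gene compared, bars at medians and dotted lines at 2-fold. Of the macrophage and leukocyte markers on FGFR3Act, 13 of 15 are lower bounds set by the floor, as is their median of 3.47.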

How the data were processed

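RNA of 3 samples, 1 for each genotype, was biotin-labelled from 15 μg of total RNA and hybridised to Affymetrix arrays, per the labels' protocols. The deposited values are linear intensities, 1 per probe set, made by the authors with MAS5, per the submitters' processing notes. The sources used here give neither its version nor detection calls. The number of arrays limits the precision.

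Probe sets were named through GEO's platform annotation where it gave 1 symbol (9039 of 9889), with symbols updated through gene identifiers in RefSeq GRCm38.p6 (9027 matched). Control probe sets (18) were left out. Where a gene had several probe sets, the brightest by mean log2 signal stood for it. Signals under the 40th percentile of an array were raised to it, and a gene entered a pair if above that floor on at least 1 array. Differences are log2 signals of the first-named array minus the second, and 2-fold is a mark of size, not a test. With 1 array per group there is no test and no p-value.

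Genes named beyond the members are the up to 3 furthest apart in each direction in each of 15 gene lists, the 5 nearest in pattern to each member at least 2-fold apart, and Fgfr3. The other R-family genes, Axin1, Snx13, Snx14, Gnai3, Gnaq, Gna11, Cma1, Tpsb2, Cx3cr1, Acta2, Tagln and Col1a1 were named in addition, after their values were seen. Gnas, Gna12, Gna13 and Gnb5 were named without values, as examples of a class or as a partner. The members and lists were chosen with earlier results of these data known. Promoter motifs were also chosen so. Computation used Python 3.11.15, pandas 2.3.3, R 4.3.3 and limma 3.58.1 (cyclic loess), and the calculations were tested on simulated data with known folds. Alternatives changed the scaling, the floor, the filter and the probe set rule.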

Additional observations from a re-analysis of the deposited data

How the results depend on the processing

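With 1 array per group no error between cultures can be given, and signals near the floor limit what can be said of Rgs2, Rgs4, Rgs5 and Rgs10. No paired analysis was possible because each genotype has 1 array and the labels give no replicate numbers. The 5 members above the floor kept their direction in each pair under every alternative that gave them a value, while 26 of 321 list medians under the alternatives changed sign, over 13 of 34 combinations of list and pair. The log2 difference of Rgs16 ranged from 3.16 to 3.33 for FGFR3Act against FGFR3WT and from 2.58 to 2.65 for FGFR3Act against FGFR3KO, and that of Rgs19 for FGFR3Act against FGFR3KO from -1.07 to -0.91. Of 139 values for members under the alternatives 4 moved by more than the spread between probe sets, all of Rgs2, as did 13 of 321 list medians, and 21 of 120 counts moved by more than 1.5 times. The cause was not tested beyond what each setting does.

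With the floor at the 20th percentile, Rgs2 was at -1.55 for FGFR3KO against FGFR3WT and 1.95 for FGFR3Act against FGFR3KO. Members at least 2-fold apart were then 1 higher (Rgs5) and 1 lower (Rgs2) for FGFR3KO against FGFR3WT, and 2 lower (Rgs19 and Rgs5) for FGFR3Act against FGFR3KO. Rgs5 entered here by 103294_at alone. Its other probe set, 96180_at, ran the other way in both pairs but stayed below that floor too. Of all 6727 genes compared for FGFR3Act against FGFR3WT, 458 were at least 2-fold higher and 432 lower. For FGFR3KO against FGFR3WT 271 were higher and 321 lower of 6690, and for FGFR3Act against FGFR3KO 660 were higher and 614 lower of 6757. The macrophage median was 4.90 for FGFR3Act against FGFR3WT and 4.72 for FGFR3Act against FGFR3KO. At a 60th percentile floor the counts were 118 and 140, 50 and 93, and 274 higher and 234 lower for FGFR3Act against FGFR3KO, the macrophage medians were 1.94 and 1.98, and the median of beta and gamma subunits for FGFR3KO against FGFR3WT was -0.023. With an offset replacing the floor, Rgs2 was at -1.39 for FGFR3KO against FGFR3WT, the 1 member at least 2-fold lower, beside 219 of all 5184 genes. Rgs2 was then at 1.77 for FGFR3Act against FGFR3KO. The macrophage medians were 5.35 and 4.73, and the median of the other R-family genes for FGFR3Act against FGFR3WT was 0.61.

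Members at least 2-fold higher for FGFR3Act against FGFR3KO numbered 1, Rgs16, with median centring, with the floor at the 60th percentile and with the floor passed on both arrays. Over all genes, 429 of 5297, 274 of 3730 and 331 of 4602 were as far above FGFR3KO under these settings. The last setting left 137 genes at least 2-fold higher for FGFR3Act against FGFR3WT. Members at least 2-fold lower for FGFR3Act against FGFR3KO numbered 0 with the mean over probe sets, and 0 without probe sets of the _s_, _x_, _f_, _g_, _r_ and _i_ kinds, which leaves none for Rgs19. Over all genes, 364 of 5306 and 353 of 4849 were as far below FGFR3KO. With no filter, genes at the floor on both arrays enter, and the medians were 0.022 for lymphocyte and for pericyte markers for FGFR3Act against FGFR3WT and 0.014 for RGS-homology genes, beta and gamma subunits and receptors for FGFR3KO against FGFR3WT.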
